A study of Mus musculus with 4 samples.

Results

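Ifi27, Ifi27l2a and Ifi27l2b form the mouse ISG12 family of small interferon-induced membrane proteins. Every probe annotated to exactly 1 of these symbols was taken. This gave 3 genes of the 19057 with a symbol, and 4 of the 45281 probes: 2 for Ifi27 and 1 each for Ifi27l2a and Ifi27l2b. The family had been selected on the measured intensities of the array without the interferon receptor, as bright interferon genes that were among the lowest there relative to controls. Their values on that array are therefore given as a description, without a test.

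RNA came from sorted spleen marginal zone macrophages of autoimmune BXD2 mice, and was measured on 4 Illumina bead arrays, each with pooled cells of 2 animals of 2.5 months. The Ifnar-/- array came from BXD2-Ifnar-/- mice, which lack the receptor for type I interferon, given PBS. The sLTβR-Fc array came from BXD2 mice given 25 µg of sLTβR-Fc, a soluble decoy receptor for lymphotoxin, intravenously. The BXD2 PBS arrays, 2 in number, are the controls of both comparisons, and the animals were killed 10 hours after injection. A control Fc protein was not among the treatments, the labels name no promoter or Cre that limits the deletion to macrophages, and the Ifnar-/- and sLTβR-Fc groups have 1 array each.

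Type I interferon binds the IFNAR1 and IFNAR2 chains, whose kinases JAK1 and TYK2 start a signalling chain to the nucleus that switches on interferon-stimulated genes. The ISG12 genes are classical targets of this route. Their products are short hydrophobic proteins found at mitochondrial and nuclear membranes, with described roles in mitochondrial cell death and virus restriction, and in humans IFI27 is widely used as a blood marker of interferon activity, including in lupus.

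In the RefSeq table of the GRCm38.p6 mouse assembly all 3 genes lie side by side on chromosome 12. The annotated span of Ifi27 lies wholly (100%) inside that of Ifi27l2a, whereas that of Ifi27l2b overlaps neither. The Ifi27 probes are assigned to different transcript records of the gene. The probe sequences were not used here, so cross-hybridisation between these relatives was not tested, and neither strand nor exon can be given for a probe.

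Each array has a background, taken as its most frequent intensity, and a probe was called above background beyond the upper 95% bound of the noise around it. The limits were 106 on the Ifnar-/- array, 108 on the sLTβR-Fc array, and 113 and 116 on the control arrays, and between 52.4% and 53.8% of probes passed. Brighter probes differed more between arrays. The 99th percentile of the deposited intensities was 4231 on the Ifnar-/- array, 3540 on the sLTβR-Fc array, and 5577 and 4956 on the controls. Values called normalised below were therefore quantile normalised, which gives all arrays the same distribution. Across 23977 probes the control arrays correlated at r = 0.992 and every other pair at 0.968 to 0.976. Probes are not independent replicates.

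Ifi27 was lower on the Ifnar-/- array with both of its probes. The brighter probe (ILMN_2681232) had a deposited intensity of 1045 on the Ifnar-/- array and 3543 after sLTβR-Fc, against 6955 and 6950 on the controls. Normalised, it read 1123 and 4586, against 5719 and 6621. The Ifnar-/- value was thus 18.3% of the geometric mean of the controls, a log2 difference of -2.45 (-2.35 from control 1 and -2.56 from control 2). The control arrays themselves differed by 0.21.

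The dimmer Ifi27 probe (ILMN_3125606) had a deposited intensity of 833 on the Ifnar-/- array and 3206 after sLTβR-Fc, against 4868 and 5039 on the controls. After normalisation these were 888 and 4158, against 3943 and 4694. Its log2 difference on the Ifnar-/- array was -2.28, with 20.6% of the control intensity left. On both probes the Ifnar-/- array lay apart at the low end, and on the normalised dimmer one the sLTβR-Fc array lay between the controls.

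Ifi27l2a, the relative that in mice restricts flaviviruses in the nervous system, had a similar profile. Its probe (ILMN_2762944) had a deposited intensity of 609 on the Ifnar-/- array and 2407 after sLTβR-Fc, against 3037 and 3378 on the controls. The normalised values were 646 and 3224, against 2433 and 3119. On the Ifnar-/- array the log2 difference was -2.09 (-1.91 and -2.27 from controls 1 and 2), or 23.5% of the control intensity. The sLTβR-Fc value lay above both controls after normalisation and below both as deposited.

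Ifi27l2b, the third gene of the cluster, was not above background on any array. Its probe (ILMN_1232995) had a deposited intensity of 103 on the Ifnar-/- array, 101 on the sLTβR-Fc array, and 102 and 107 on the controls, which is 0.90 to 0.97 times the respective limits. No level or fold is therefore given for this gene.

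**Figure D1:**
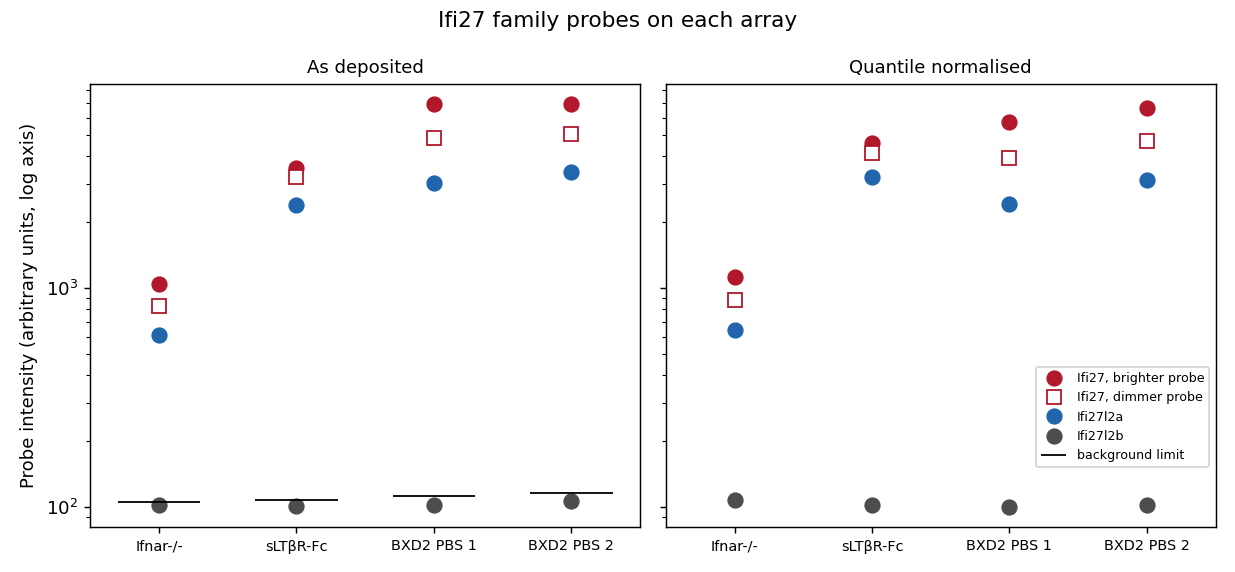
Intensity of the 4 probes of the Ifi27 family on each array (arbitrary units, log axis), as deposited on the left and after quantile normalisation on the right. Each point is 1 array, the black lines mark the background limits of the deposited values. The Ifi27 and Ifi27l2a probes are lowest on the Ifnar-/- array in both panels, and Ifi27l2b stays below the limits throughout.

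Signal of both expressed genes remained on the Ifnar-/- array. The deposited intensities there were 9.85 and 7.85 times the background limit for the Ifi27 probes and 5.74 times for Ifi27l2a. On the sLTβR-Fc array the same probes stood at 32.7, 29.6 and 22.2 times the limit. On the controls they stood at 61.5 and 60.2, at 43.1 and 43.6, and at 26.9 and 29.2 times. Since background remains in the intensities, the fold differences are somewhat understated. With the most frequent intensity subtracted, an alternative chosen after seeing the data, the Ifnar-/- differences were -2.57 for Ifi27 and -2.29 for Ifi27l2a. In bulk RNA of this kind, fewer cells of an expressing type and less RNA per cell cannot be told apart.

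Among 14718 genes with a probe above background on at least 1 array, each represented by its brightest probe, Ifi27 had the 5th and Ifi27l2a the 8th lowest difference on the Ifnar-/- array. A gene was counted as 2-fold lower when it was so against each control array. Over all genes, each by its brightest probe, 0.931% were. Of the 4 family probes, counted singly and with no background filter, 3 were. This count follows from how the genes were picked.

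The sLTβR-Fc array was compared in limma, with 1 fit over the 4 arrays and Benjamini-Hochberg adjustment over all 23977 probes tested. Of the 3 family probes above background none passed an adjusted p of 0.05 and 1 had an unadjusted p under 0.05, while 6.59% of all probes were called lower and 6.49% higher. The brighter Ifi27 probe lay at 74.5% of the control mean (log2 -0.42 ± 0.18 SE, 95% interval -0.79 to -0.06, unadjusted p = 0.0235, adjusted p = 0.121 in limma). The dimmer Ifi27 probe lay at 96.6% (log2 -0.05 ± 0.20, interval -0.44 to 0.35, adjusted p = 0.911). Ifi27l2a lay at 117% (log2 0.23 ± 0.22, interval -0.21 to 0.66, adjusted p = 0.551). These intervals take their spread from the control pair alone, which the single sLTβR-Fc array is assumed to share. The labels do not say whether the control arrays hold different mice, so this spread may be technical.

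The sLTβR-Fc values depended on how the arrays were scaled. Without scaling, the brighter Ifi27 probe was at 51.0% of the controls (log2 -0.97, adjusted p = 0.000978 in limma) and the dimmer probe at 64.7% (log2 -0.63, adjusted p = 0.0322). Ifi27l2a was at 75.1% and turned negative (log2 -0.41, adjusted p = 0.192). In those unscaled values the median of all genes on that array was -0.21. The family probes are bright, and the bright end of that array was lower as a whole. Its 95th percentile was 876, against 1536 and 1371 on the controls. With scaling to the upper quartile the brighter Ifi27 probe was lower as well (log2 -0.65, adjusted p = 0.0076), and the dimmer probe was not called (log2 -0.30, adjusted p = 0.223). The Ifnar-/- differences kept their sign, at -1.91 or below, under each of the 10 alternatives run for them.

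**Figure D2:**
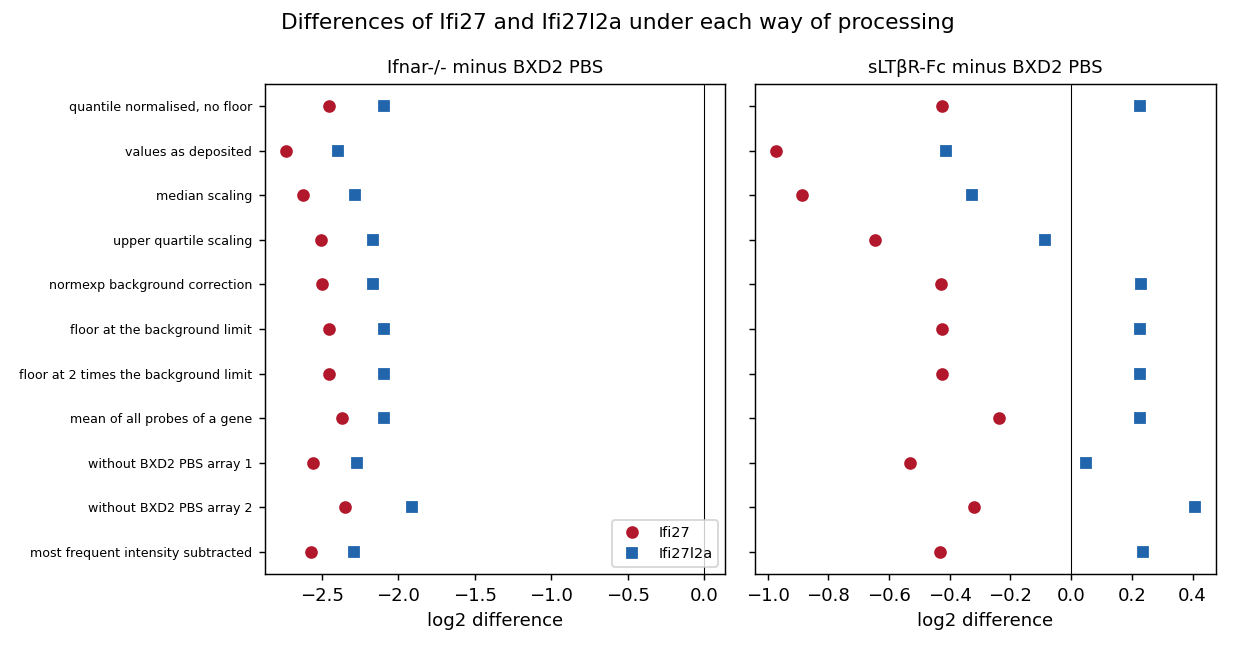
Log2 difference of Ifi27 and Ifi27l2a from the mean of the BXD2 PBS arrays under each way of processing. The Ifnar-/- array is on the left and the sLTβR-Fc array on the right. Ifi27 is its brighter probe, except where all probes of a gene are averaged. Points stay between -2.73 and -1.91 on the left. On the right Ifi27 spans -0.97 to -0.24, the latter being the mean of its probes. Ifi27l2a spans -0.41 to 0.41, on both sides of 0.

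Ratios between probes of the same array do not depend on a scaling factor, though they would on the quantile normalisation, and are given from the deposited intensities. The deposited intensity of the brighter Ifi27 probe over that of Ifi27l2a was 1.72 on the Ifnar-/- array and 1.47 after sLTβR-Fc, against 2.29 and 2.06 on the controls. For the dimmer probe the ratio to Ifi27l2a was 1.37 and 1.33, against 1.60 and 1.49. Both ratios were thus lower on each lone array than on both controls, and after subtraction of background (1.85 and 1.49, against 2.34 and 2.09 for the brighter probe) the order was unchanged. The ratio of the Ifi27 probes to each other was also lower, at 1.25 and 1.11, against 1.43 and 1.38. Since probes of 1 gene shifted by a similar amount, the ratios to Ifi27l2a do not separate a difference between genes from one between probes. These ratios have 1 array in each tested condition and no test.

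Between the lone arrays, which share no control in this contrast, the normalised sLTβR-Fc intensity was 4.08-fold that of the Ifnar-/- array for the brighter Ifi27 probe. It was 4.68-fold for the dimmer probe and 4.99-fold for Ifi27l2a. In the deposited values the same folds were 3.39, 3.85 and 3.95. The order of the arrays was thus Ifnar-/- lowest on every expressed probe, while the sLTβR-Fc and control arrays changed places with the probe and the scaling.

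Other genes of the interferon response were measured through a list of 48 interferon-stimulated genes that holds no ISG12 member, 40 of them above background on at least 1 array. On the Ifnar-/- array 17 of the 40 fell and 0 rose in limma, against 6.13% and 5.9% of all genes. Of the 40, 31 lay below both controls (35.1% of all genes did), 3 above both (42.8%), and 6 were 2-fold lower. The list's median log2 difference was -0.36, against 0.02 for all genes. In unscaled values it was -0.62, against -0.14 for all genes, and with a floor at 2 times the background limit -0.12, against 0. The unscaled 95th percentile was itself lower on this array, at 1136, against 1536 and 1371 on the controls. The list's lowest member lay at -2.06, above Ifi27 (-2.45) and close to Ifi27l2a (-2.09). The list was drawn up with earlier results of these data known. Here too limma rests on 1 Ifnar-/- array and takes its spread from the control pair alone, which may be technical. Small adjusted p values below therefore do not measure variation between Ifnar-/- mice.

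Its lowest members were antiviral effectors and a feedback regulator. Oasl2, of the oligoadenylate synthetase family, read 133 on the Ifnar-/- array and 526 after sLTβR-Fc, against 517 and 591 on the controls (Ifnar-/- log2 -2.06 ± 0.19 SE, adjusted p = 1.97e-11). Oas1g, a synthetase of the 2-5A activator of RNase L, read 112 and 533, against 410 and 496 (log2 -2.01 ± 0.18, adjusted p = 1.35e-11). Usp18, which removes ISG15 and dampens receptor signalling, read 126 and 356, against 352 and 598 (log2 -1.87 ± 0.20, adjusted p = 8.55e-10). Further probes of these genes, dimmer and with levels not given here, gave -0.28, 0.03 and -0.02. Cmpk2, a mitochondrial nucleotide kinase with 1 probe, read 196 and 425, against 681 and 617 (log2 -1.73 ± 0.20, adjusted p = 5.25e-09). The other genes 2-fold lower were Ifit3 (log2 -1.65), which binds viral RNA complexes, and Eif2ak2 (log2 -1.26), the double-stranded RNA kinase PKR. The Ifi27 probes thus differed by 0.18 in this log2 difference, while probes of Oasl2, Oas1g and Usp18 lay further apart. Close probes were not particular to Ifi27. Ifit2 gave -0.98 with -0.85 on its further probe, and Dhx58 gave -0.56 with a median of -0.43 on its further probes.

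On the sLTβR-Fc array 6 members of this list fell and 1 rose in limma, against 6.05% and 7.9% of all genes, and 0 were 2-fold lower or higher (0.462% and 1.01% of all genes were). The median was -0.14, against 0.02 for all genes. Dtx3l, a ubiquitin ligase partner of Parp9, fell most (log2 -0.90 ± 0.22 SE, adjusted p = 0.00369), though a further probe gave 0.05. Epsti1, an interferon-induced macrophage gene, came next (log2 -0.84 ± 0.22, adjusted p = 0.00743), with -0.11 on its further probes. The remaining genes that fell were Slfn1 (log2 -0.72), Cmpk2 (-0.61), Ifit2 (-0.55) and Ifih1 (-0.40), and the one that rose was Ifitm3 (0.72), which blocks virus entry. They are named because they are few, after their values were seen. The list median was -0.66 in unscaled values, below that of all genes (-0.21), and -0.028 with a floor at 2 times the background limit. The unscaled upper quartile of that array was itself lower, at 146, against 188 and 179 on the controls. The part of probe brightness in the unscaled gap was not tested.

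**Figure D3:**
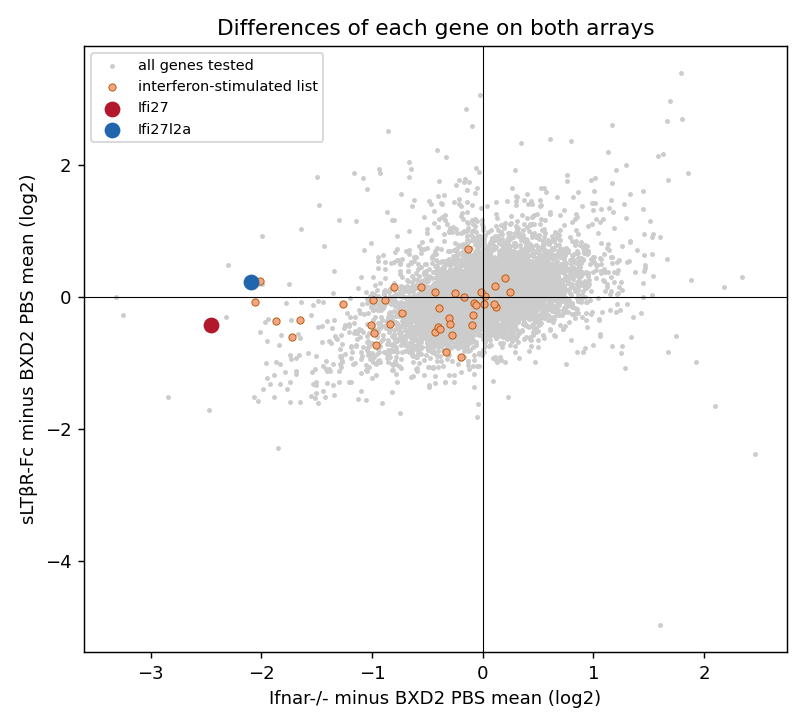
Log2 difference from the mean of the BXD2 PBS arrays for each of 14718 genes (brightest probe), on the Ifnar-/- array (horizontal) and on the sLTβR-Fc array (vertical). The axes share the control arrays. Ifi27 (-2.45, -0.42) and Ifi27l2a (-2.09, 0.23) lie 5th and 8th from the left, near the horizontal axis. Most interferon-stimulated genes lie to the left of 0.

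Genes of the receptor and its signalling chain had members called in both directions. Of 16 listed, 15 were measured, and on the Ifnar-/- array 2 fell and 3 rose in limma, against 6.13% and 5.9% of all genes, with a median of 0.07. Ifngr1 rose (log2 0.91 ± 0.21 SE, adjusted p = 0.00133 in limma) and Ifngr2 fell (-0.76 ± 0.13, adjusted p = 1.99e-05). They encode the chains of the receptor for interferon gamma, the type II interferon. The others called were Irf3 (0.67) and Ptpn6 (0.55) as higher and Ptpn11 (-0.64) as lower, the last with 0.05 on its further probes. On the sLTβR-Fc array 4 fell and 2 rose, against 6.05% and 7.9% of all genes. The median there was -0.21, against 0.02 for all genes. The chains of the type I receptor were among those that fell, Ifnar1 (log2 -0.38, adjusted p = 0.0156) and Ifnar2 (-0.49, adjusted p = 0.0443), Ifnar2 with -0.10 on its further probes. Irf9, a DNA-binding transcription factor of this route, fell (log2 -0.74 ± 0.23, adjusted p = 0.0207, with 0.19 on its further probe), and Socs3, a feedback inhibitor, rose (0.72 ± 0.22, adjusted p = 0.0235). Ifnar1 read 191 on the Ifnar-/- array and 117 after sLTβR-Fc, against 157 and 149 on the controls. The position of its probe relative to the deletion is unknown here, so it does not check the genotype.

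The genes next to the family on chromosome 12 did not share its profile. The 5 nearest genes with a probe on each side were examined, of which Prima1, Ppp4r4, Serpina10, Serpina6 and Serpina1f were not above background on any array. Asb2, a substrate adaptor of a ubiquitin ligase, rose on the Ifnar-/- array (2761, against 1058 and 1310 on the controls, log2 1.23 ± 0.22 SE, adjusted p = 6.12e-05 in limma) and read 1743 on the sLTβR-Fc array. Ddx24, an RNA helicase gene and the direct neighbour of Ifi27l2a, read 1056 and 1194, against 1670 and 1270 (Ifnar-/- log2 -0.46, adjusted p = 0.217). Otub2, a deubiquitinase gene, read 247 and 198 on the same lone arrays, against 211 and 213. Unc79, dim at 146 and 170 against 127 and 129 on the controls, rose on the sLTβR-Fc array (log2 0.41 ± 0.11, adjusted p = 0.00507). Serpina16 lay at the background limit. None of the 5 measured neighbours was called lower by limma in either comparison. Ddx24 and, at the background limit, Serpina16 nevertheless read below both controls on each lone array. Otub2 did so after sLTβR-Fc only.

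**Figure D4:**
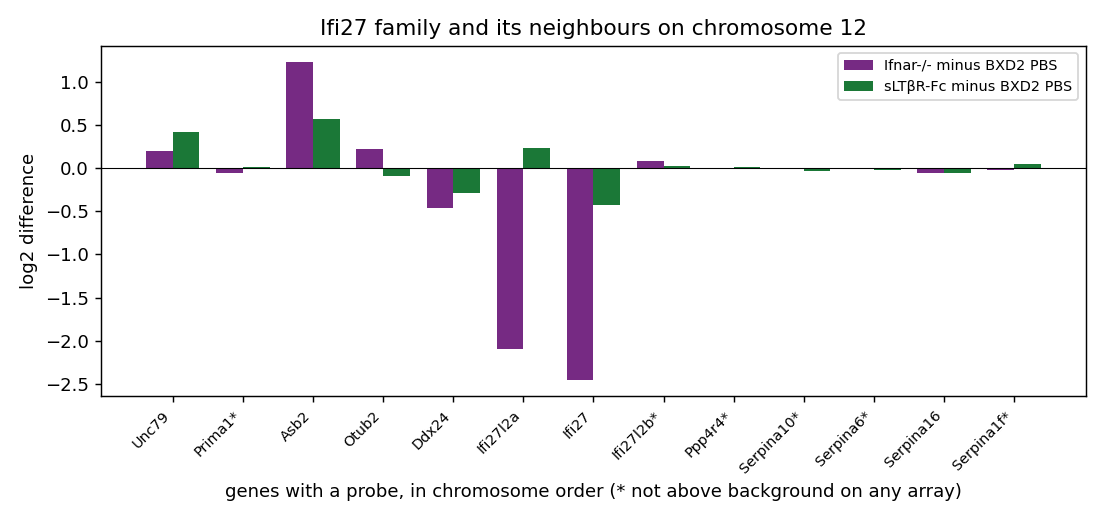
Log2 difference from the mean of the BXD2 PBS arrays for the Ifi27 family and the nearest genes with a probe, in their order on chromosome 12, each by its brightest probe; bars start at 0. Ifi27 and Ifi27l2a stand at -2.45 and -2.09 on the Ifnar-/- array, while Asb2 stands at 1.23 and Ifi27l2b at background.

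The genes most like Ifi27 and Ifi27l2a over the 4 arrays were found by the Euclidean distance between log2 values centred on the control mean, among 10766 genes above background on every array. For Ifi27 they were Cap1 (distance 0.28), which binds actin and adenylyl cyclase, Gnas (0.53), the stimulatory G protein subunit, Oasl2 (0.53), Mtf2 (0.66), a Polycomb-associated protein, and Creld2 (0.68), an endoplasmic reticulum stress gene. For Ifi27l2a they were Oas1g (0.10), Oasl2 (0.32), Mt1 (0.46), a metallothionein, Cap1 (0.66) and Usp18 (0.70). Ifi27 and Ifi27l2a lay 0.75 apart, Ifi27l2a being the 8th nearest gene to Ifi27 and Ifi27 the 7th nearest to Ifi27l2a. Further probes of Gnas (0.15 on the Ifnar-/- array) and Mtf2 (-0.28) did not repeat the difference of the brightest probe. Nor did those of the interferon-stimulated genes Oas1g (0.03), Oasl2 (-0.28) and Usp18 (-0.02), whereas that of Creld2 did (-2.11). Further probes are dimmer than the brightest one and had to pass background on at least 1 array only. Their levels are not given, and a probe near background can show little difference. These distances cover 4 arrays and describe likeness only.

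Markers of the sorted cell type and of other cell types were compared across the same arrays, and limma called 6.13% of all genes lower and 5.9% higher on the Ifnar-/- array, against 6.05% lower and 7.9% higher after sLTβR-Fc. Of the genes that set the sort gate, Cd209b, which encodes SIGN-R1, read 152 on the Ifnar-/- array and 145 after sLTβR-Fc, against 127 and 130 on the controls, close to background. Itgam, which encodes CD11b, lay near background too (118 and 116, against 113 and 109). Adgre1, which encodes a macrophage antigen that the gate left out, read 1017 and 631, against 629 and 306, its controls lying over 2-fold apart. H2-Ab1, whose product the gate also left out, read 16289 and 9488, against 8662 and 8305. Of 9 marginal zone macrophage markers 6 were measured, and Msr1, Cd5l and Siglec1 were not above background on any array. The measured markers summed to 831 and 916, against 1056 and 819. All 6 were dim, and background was not subtracted, so it makes up a large part of these sums. On the Ifnar-/- array limma called the complement genes C1qa (log2 -0.41, adjusted p = 0.00847) and C1qb (-0.60, adjusted p = 0.002) lower. C1qa read 119 there, against 168 and 148 on the controls. C1qb read 107, close to the background limit, against 208 and 127, so its controls lay wide apart. After sLTβR-Fc no measured marker passed the test.

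Granulocyte and lymphocyte markers differed as well. Sums here and below are of linear intensities, so the brightest genes weigh most. Mpo gave 31594.5 of the neutrophil sum after sLTβR-Fc. On the Ifnar-/- array Cd79b gave 13760 of the B cell sum and Lyz2 9203 of the monocyte sum. Neutrophil markers summed to 17378 on the Ifnar-/- array and 58311 after sLTβR-Fc, against 46879 and 32104. On the Ifnar-/- array 8 of 10 fell and 1, Retnlg, rose (log2 2.18, adjusted p = 1.23e-11), and after sLTβR-Fc 4 rose. Eosinophil markers summed to 4447 and 28056, against 5212 and 5901, and 4 of 6 rose after sLTβR-Fc, with none called on the Ifnar-/- array. B cell markers summed to 23477 and 10988, against 16050 and 15282, 4 of 8 rising on the Ifnar-/- array and 2 falling after sLTβR-Fc. T cell markers summed to 6327 and 5109, against 8438 and 9970, and 3 of 8 fell on the Ifnar-/- array and 5 after sLTβR-Fc.

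Conventional dendritic cell markers summed to 2386 on the Ifnar-/- array and 1463 after sLTβR-Fc, against 1178 and 1350.4, and 6 of 7 rose on the Ifnar-/- array and 2 after sLTβR-Fc. Plasmacytoid dendritic cell markers, of a major interferon producer, summed to 9045 and 9616, against 10492 and 9848, with 1 of 5 lower on the Ifnar-/- array and none called after sLTβR-Fc. Erythroid markers summed to 1569.6 and 1974, against 4281 and 2293, and 3 of 5 fell on the Ifnar-/- array and 1 after sLTβR-Fc. NK cell markers summed to 14204 and 12647, against 15882 and 16237, with 2 of 5 higher and 1 lower on the Ifnar-/- array and 2 lower after sLTβR-Fc. Prf1 alone gave 10056 and 10810, against 12959 and 12678. It was the 1 marker below both controls on the Ifnar-/- array, with 0.46 on its further probe, while 3 lay above both. Monocyte markers summed to 10757 and 8795, against 11121 and 6252, with 1 of 6 higher and 1 lower on the Ifnar-/- array and 0 called after sLTβR-Fc. The part of these cells in the Ifi27 and Ifi27l2a values was not tested.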

How the data were processed

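RNA of sorted spleen marginal zone macrophages was extracted with Trizol and biotin-labelled with the MessageAmp kit of Ambion, per the labels' protocols. GenomeStudio 2011.1 is named in the submitters' processing notes. The deposited values are 1 linear intensity per probe and array. The authors' handling of background, scaling and filters is not stated in these sources. Slide and scan batches were not analysed here.

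Probes were named through the platform's annotation (34885 with 1 symbol, 18 with several, 10378 with none), and all 3 family symbols were found in the RefSeq table. Intensities were quantile normalised and converted to log2 with no floor, since a floor leaves dim probes with no spread between controls. Probes with 1 symbol and above background on at least 1 array (23977, for 14718 genes) were fitted in limma 3.58.1 (R 4.3.3) as 3 group means with eBayes and a mean-variance trend. The control pair supplies the only residual degree of freedom (1), to which eBayes adds a prior of 47.1. Groups came from sample titles, and the precision is limited by the number of arrays. Each gene is represented by its brightest probe.

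The family, the gene lists and the rules were chosen with earlier results of these data known. Named genes are all family members, the 5 nearest by pattern, the neighbours by position, the gate genes, and in each list the genes with the largest differences. Alternatives changed the scaling, background, floor, filter, variance model, probe choice and control arrays. Promoter and protein sequences of the family were not analysed here.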

Additional observations from a re-analysis of the deposited data

How the results depend on the processing

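No paired analysis was possible because the groups share only the replicate number 1. The limma counts and 2-fold counts below are over all probes or genes. Values as deposited moved the Ifnar-/- difference to -2.73 for Ifi27 and -2.40 for Ifi27l2a, and median scaling moved that of Ifi27 to -2.62. On the sLTβR-Fc array Ifi27 became called as lower in the values as deposited (-0.97), under median scaling (-0.89, adjusted p = 0.0112 in limma) and under upper quartile scaling (-0.65). Ifi27l2a turned round to -0.41, -0.33 and -0.087 under these same 3 scalings, with no call. In the other 8 fits with a test, neither gene was called. Without 1 control array the Ifnar-/- difference ranged from -2.56 to -2.35 for Ifi27 and from -2.27 to -1.91 for Ifi27l2a, and the sLTβR-Fc difference from -0.53 to -0.32 and from 0.05 to 0.41. For the dimmer Ifi27 probe, whose alternatives were added after seeing the data, the sLTβR-Fc difference ranged from -0.63 to 0.08, the lower end being the values as deposited, the one fit of it with a call.

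The number of probes limma called was 2645 in the Ifnar-/- and 3135 in the sLTβR-Fc comparison. It was 0 in both with a floor at the background limit (4566 and 5300.0 at an unadjusted p under 0.05), and 482 and 16546 with a floor at 2 times the limit. It was 1433 and 1608 with the mean of all probes of a gene, 1396 and 1331 without a mean-variance trend, and 1505 in the Ifnar-/- comparison under median scaling. In the sLTβR-Fc comparison it was 7753 as deposited, 6543 under upper quartile scaling and 1986 with 1 probe per gene. The number of genes 2-fold lower than both controls was 137 and 68. It was 296 and 651 as deposited and 64 and 32 with the mean of all probes, and in the sLTβR-Fc comparison 444 under median and 192 under upper quartile scaling. Without 1 control array it ranged from 163 to 261 and from 109 to 149. The cause of these changes was not tested.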

Other observations

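ISG12 proteins have been described to act with Nr4a nuclear receptors, the exporter Xpo1 and the ubiquitin ligase subunit Skp2, and these genes were measured beside them. Nr4a2, a transcription factor induced by activation, rose on the Ifnar-/- array (log2 0.98 ± 0.20 SE, adjusted p = 0.000363 in limma) and after sLTβR-Fc (0.57 ± 0.20, adjusted p = 0.0474). It read 636 and 479, against 290 and 358 on the controls. Skp2 fell on the Ifnar-/- array (-0.33 ± 0.11, adjusted p = 0.0452), at 134 against 168 and 169. Nr4a3, close to background, was called higher on the sLTβR-Fc array (0.28 ± 0.09, adjusted p = 0.0374), but a further probe gave -0.15. Nr4a1 and Xpo1 stayed near background on all 4 arrays, between 109 and 124. Of these 5 genes 1 fell and 1 rose on the Ifnar-/- array, and 0 fell and 2 rose after sLTβR-Fc, against the shares of all genes given with the next list.

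Genes of mitochondrial cell death, the process in which ISG12 proteins are described, had a median log2 difference of 0.02 on the Ifnar-/- array, where 1 of 13 measured members fell and 0 rose in limma (6.13% and 5.9% of all genes did). That gene was Bcl2, the survival factor, which read 970.0 on the Ifnar-/- array and 1112 after sLTβR-Fc, against 2149 and 1979 on the controls (log2 -1.09 ± 0.22 SE, adjusted p = 0.000361, and -0.89 ± 0.22, adjusted p = 0.00359). Its further probes, however, gave medians of -0.09 and -0.05. After sLTβR-Fc the other member that fell was Mcl1, a second survival factor of the same family (log2 -0.72 ± 0.17, adjusted p = 0.00176), so that 2 of 13 fell and 0 rose (6.05% and 7.9% of all genes did), and the list's median was 0.14. The controls of both comparisons are the same arrays.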
